A study of Mus musculus with 7 samples.

Results

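Replication-dependent histone genes encode the histones that package newly copied DNA, and they lie in clusters of small genes. The genes described here are the rows of the deposited count table whose names begin with Hist1h, Hist2h, Hist3h or Hist4h, 70 of 34592. By the letters after the cluster name they fall into 6 H1, 20 H2A, 19 H2B, 12 H3 and 13 H4 genes. H2A, H2B, H3 and H4 form the core of the nucleosome around which DNA is wound, and H1 is the linker histone that binds DNA between nucleosomes. Most animal mRNAs end in a poly(A) tail, but mRNAs of these genes mostly end just after a short stem-loop that stem-loop binding protein (Slbp) holds, and they are made chiefly in S phase. Selection of RNA on its poly(A) tail therefore keeps little of them, so their level serves as a check on how a library was made.

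The study overexpressed human WDR11, a WD-repeat protein, in mouse Group 3 medulloblastoma (G3 MB), the subgroup marked by MYC, and sequenced RNA of 4 such tumors (WDR11OE) and 3 control tumors. All 7 tumors came from the tumorsphere line #19568, which descends from tumors of Trp53-/-; Cdkn2c-/- granule neuron progenitors given the MSCV Myc-IRES-GFP retrovirus. The WDR11OE cells received a pCDH lentivirus that drives WDR11 and copGFP from the EF1 promoter, and the controls received the empty vector according to the protocols, whereas their treatment field reads none. Cells were put back into the cortex of CD1 nu/nu mice, and by the sample protocols RNA came from pieces of tumor frozen when the animals were moribund, although the source names read tumorspheres. The age of the animals at that time is not stated. The line is a single source for all tumors, the cells were not sorted before implantation, and a piece of tumor also holds host cells. Library numbers run in a separate series for each group, so an effect of the series and an effect of WDR11 cannot be told apart. Of the WDR11OE libraries, 2 share the code MB4670 in their titles, which no label explains. Whether these 2 came from separate animals is not known. Each is counted as a separate tumor, and p-values measure only the spread between the 7 libraries.

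Total counts were 35463784, 41397427 and 33417175 in the control tumors and 42252257, 85371523, 32116095 and 87141305 in the WDR11OE tumors. Levels are given as CPM, the counts of a gene scaled to a common library total after normalization by the trimmed mean of M-values (TMM). A count of 3 equals 0.0919 CPM in the smallest control library, and this floor covers the sampling of reads only. Every log2 fold change compares WDR11OE with control.

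The annotation places 56 of the 70 genes in the Hist1 group on chromosome 13, 10 in Hist2 on chromosome 3, 3 in Hist3 on chromosome 11 and 1, Hist4h4, on chromosome 6. On chromosome 13, 24 genes lie between 21.8 and 22.1 Mb and 31 between 23.6 and 24 Mb of mm9, while Hist1h2al lies apart at 51.3 Mb. A single exon block makes up 63 of the 70 genes. The proteins differ far less than the genes. The 13 H4 genes all encode the same protein of 103 residues, and 11 coding H3 genes encode 2 proteins of 136 residues. For H2A, 19 coding genes give 10 proteins, for H2B 18 give 11, and each of the 6 H1 genes gives a protein of its own, of 209 to 223 residues. Near-identical genes can share reads, and how the counting treated reads with several hits is not stated. At least 50% of all 50-base stretches recur in another histone gene for 30 of the 70, and every stretch recurs for 6: Hist1h2ao and Hist1h2ap, Hist1h2bq and Hist1h2br, and Hist2h2aa1 and Hist2h2aa2. Values of these 30 genes are uncertain as levels of single genes. On the same strand, 4 genes also overlap an exon of another gene, among them Hist3h2a with Trim17.

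The stem-loop that replaces the poly(A) tail was looked for in the 200 bases after each stop codon, on the coding strand, as 16 bases of the form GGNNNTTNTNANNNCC with at least 5 of 6 arm bases paired. It was present in 63 of the 67 histone genes with an annotated coding sequence (94.0%) and in 41 of 22363 other coding genes (0.183%). It began 25 to 62 bases past the stop codon. The coding genes without a match were Hist1h2al, Hist1h2an, Hist2h2bb and Hist2h2be. The purine run AAAGA, of the kind that U7 RNA pairs with, followed within 24 bases in 20 of the 63 (31.7%), against 1 of the 41 other genes (2.44%). A poly(A) signal, AATAAA or ATTAAA, lay in the last 50 annotated bases of 17 of the 67 histone genes (25.4%) and of 65.8% of other coding genes. Several histone genes, Hist1h2af and Hist4h4 among them, are annotated to end before their stem-loop. For these the search could not reach bases past the stem-loop. A match of letters is a description and shows no use of the site.

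The stem differed between H4 and all other classes, the linker H1 included. The most common form, with a GGCTCT arm and a TTTC loop, was held by 39 genes, all H1, H2A, H2B or H3, and a TTTA loop followed the same arm in 9 more. None of the 13 H4 genes had this arm. In its place they had GGCCCT (11 genes) or GGTCCT (2 genes), with the opposite arm changed to match. The sequences below, read 5′ to 3′ on the coding strand of mm9, are shown because they hold these forms in genes whose levels are given further on, together with Hist1h4j for the rarest arm. Capitals mark the 6 paired bases on each side of the loop.
Hist1h1d: aaacGGCTCTtttcAGAGCCacccacaa
Hist1h2af: caaaGGCTCTtttcAGAGCCaccacttc
Hist1h2bb: caaaGGCTCTtttaAGAGCCacccacac
Hist2h3b: caaaGGCTCTtttcAGAGCCacctacgt
Hist1h4d: caaaGGCCCTtttcAGGGCCactacctt
Hist2h4: taacGGCCCTttttAGGGCCaaccacag
Hist1h4j: taaaGGTCCTtttcAGGACCaccacatc

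The stem-loops lie at chr13:23647656-23647671 (Hist1h1d, plus strand), chr13:23626228-23626243 (Hist1h2af, plus), chr13:23839072-23839087 (Hist1h2bb, plus) and chr3:96073058-96073073 (Hist2h3b, plus). Those of H4 genes lie at chr13:23673819-23673834 (Hist1h4d, plus), chr3:96066862-96066877 (Hist2h4, minus) and chr13:21827306-21827321 (Hist1h4j, plus). In every printed H1, H2A, H2B and H3 example the stem ends on GAGCC, and in the H4 examples on GGGCC or GGACC.

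Histone cluster mRNA was abundant in every tumor. Together the 70 genes took 0.815%, 1.16% and 1.56% of all counts in the control tumors and 1.48%, 1.55%, 1.32% and 1.15% in the WDR11OE tumors. Summed, this was 289090, 481187 and 520039 counts in controls and 626787, 1320081, 425213 and 1005367 in WDR11OE tumors. Measured per exon length, the median histone gene stood at 295 CPM per kb, against 4.61 CPM per kb for all 17389 genes tested. On this scale 62 of the 70 were at or above the 90th percentile of tested genes, and 65 were at or above the median. Hist1h4d, an H4 gene, was the highest at 1233 CPM per kb, followed by Hist1h2bb, an H2B gene, at 869 CPM per kb. The 3 genes too low to test stood at 0 to 0.187 CPM per kb. Lowest among the tested genes, Hist3h2a stood at 3.37 CPM per kb (percentile 43.4), Hist2h2be at 4.35 (percentile 48.7) and Hist1h2ba, known as the testis H2B, at 8.04 (percentile 63.8).

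These levels bear on poly(A) selection, for which the sources differ: the labels name the TruSeq RNA Library Preparation Kit v2, sold as a poly(A)-selecting kit, and the paper's methods describe stranded sequencing of total RNA. RNAs that carry no poly(A) tail at all can be read beside the histones. None of the 12 gene symbols on a list of such RNAs is in the table, so 6 that the table spells by family name were added after it was seen. The row 7SK, an RNA that regulates transcription elongation, stood at 24116, 27364 and 24100 CPM in controls and 33813, 45498, 42138 and 35471 CPM in WDR11OE tumors. It held rank 3 of all genes by mean CPM. RNase_MRP, the RNA of an enzyme that cleaves ribosomal and mitochondrial RNA, stood at 10672, 11630 and 10289 CPM against 10549, 12693, 9140 and 8288 CPM, at rank 6. These 2 of the 6 rows were thus counted at high levels in every tumor, and the other 4 at far lower ones. RNaseP_nuc, the RNA of an enzyme that trims tRNA precursors, stood at 49.5, 91.5 and 39.96 CPM against 48.4, 57.0, 83.4 and 131 CPM, with overlap. The U7 row, the RNA that guides histone mRNA cleavage, stood at 0.222, 0.167 and 0.0613 CPM against 0.261, 0.274, 0.555 and 0.832 CPM. It was higher in every WDR11OE tumor, at 2 to 76 counts a tumor, and did not pass (log2 fold change 1.66 ± 0.61 SE; edgeR with Benjamini-Hochberg adjustment, adjusted p = 0.0740). The family names do not say which loci were summed.

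Of these 6 tailless RNAs, 1 passed lower and none higher by edgeR (quasi-likelihood, Benjamini-Hochberg), about the share of all genes (15.8% lower, 18.1% higher). The lower row was Vault, at 15.6, 15.1 and 15.8 CPM in controls and 6.82, 8.55, 7.46 and 5.73 CPM in WDR11OE tumors (log2 fold change -1.12 ± 0.16 SE; edgeR with Benjamini-Hochberg adjustment, adjusted p = 0.00214). All 3 controls lay above all 4 WDR11OE tumors. For 7SK all WDR11OE tumors lay above all controls, with a log2 fold change of 0.64 ± 0.30 (SE) that did not pass the same edgeR test with Benjamini-Hochberg adjustment (adjusted p = 0.151). Y_RNA varied widely in controls, at 292, 15.5 and 398 CPM, and far less in WDR11OE tumors, at 45.8, 50.5, 37.6 and 44.6 CPM. Its log2 fold change of -2.40 ± 0.82 (SE) did not pass edgeR with Benjamini-Hochberg adjustment (adjusted p = 0.0604).

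How far the annotation runs past the stem-loop also divides the genes. The median level was 357 CPM per kb for 49 genes annotated to end less than 200 bases past it, 104 for 14 genes annotated to run 200 bases or more past it, and 104 for 7 genes with no match or no coding sequence. The 49 genes made up 70.6%, 70.9% and 70.7% of the histone sum in controls and 72.3%, 72.3%, 71.6% and 71.7% in WDR11OE tumors. This share lay slightly higher in every WDR11OE tumor than in any control. A level per kb divides by the whole annotated exon, including bases past the stem-loop, and read positions are not in the table. Whether the reads came from tailed or tailless histone mRNA was not tested. No library of these tumors made with another selection is in the series.

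Across the classes, histone mRNA varied more between tumors than between groups. The summed level was 8034, 11474 and 15938 CPM in the control tumors and 14844, 16469, 13102 and 11012 CPM in the WDR11OE tumors. Control 1 was the lowest of all tumors and WDR11OE 2 the highest, and the groups overlapped. The means were 11815 ± 3963 CPM (SD, n = 3) and 13857 ± 2342 CPM (SD, n = 4), a ratio of 1.17. Fewer cells of a type and less RNA per cell cannot be told apart in these tumors.

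Linker H1 genes summed to 1499, 2037 and 2731 CPM in controls and 2640, 2862, 2294 and 2002 CPM in WDR11OE tumors. H2A genes summed to 1237, 1945 and 2683 CPM against 2302, 2644, 2235 and 1844 CPM. H2B genes, the most abundant class, summed to 2112, 2874 and 4125 CPM against 3885, 4304, 3504 and 2886 CPM. In these 3 classes the order of the tumors within each group was the same, with control 3 the highest control and WDR11OE 2 the highest WDR11OE tumor. H3 genes summed to 1357, 2090 and 2914 CPM against 2708, 3084, 2440 and 2075 CPM. H4 genes summed to 1829, 2527 and 3484 CPM against 3308, 3575, 2630 and 2205 CPM. The groups overlapped in every class, and WDR11OE 4 was the lowest WDR11OE tumor in each.

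**Figure D1:**
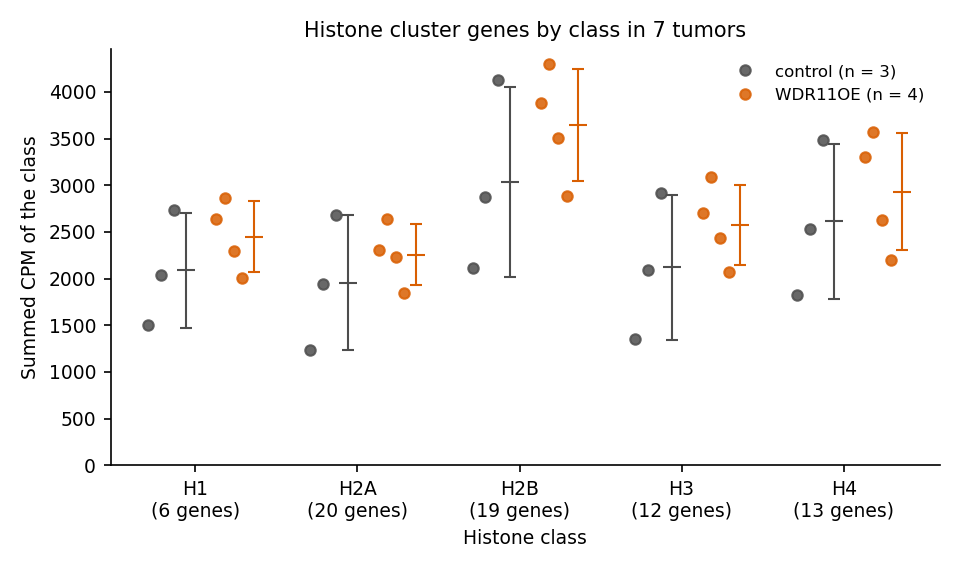
Summed CPM of the H1, H2A, H2B, H3 and H4 cluster genes in 3 control and 4 WDR11OE tumors; bars give mean ± SD. In every class control 1 is the lowest tumor and the groups overlap.

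The proportions of the classes were held more closely than their sums. As a share of the histone sum, H1 made up 17.8% ± 0.765 in controls and 17.7% ± 0.356 in WDR11OE tumors (SD, n = 3 and 4). H2A made up 16.4% ± 0.867 and 16.3% ± 0.695, and H2B 25.7% ± 0.628 and 26.3% ± 0.288. H3 made up 17.8% ± 0.783 and 18.6% ± 0.259, and H4 22.2% ± 0.482 and 21.0% ± 1.15. All 5 shares overlapped between the groups. The sum was not carried by a few genes: 18 genes held 50% of it, and the most abundant, the linker gene Hist1h1d, held 4.22%. For the typical gene the coefficient of variation of CPM was 34.7% in controls and 17.1% in WDR11OE tumors, and that of its share of the histone sum was 6.82% and 5.22%.

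Neuron markers stood apart in the tumors lowest in histone mRNA. The 8 markers summed to 446, 147 and 65.8 CPM in controls 1 to 3 and to 11.8, 26.6, 216 and 710 CPM in WDR11OE 1 to 4. Control 1 and WDR11OE 4, each the lowest of its group in histone mRNA, were each the highest of its group in neuron markers. None of the 8 passed edgeR's test in either direction (unadjusted p under 0.05: 0 by edgeR, DESeq2 and limma voom), and the part of host brain in the histone sums was not tested. By the mean over all tumors their most abundant gene was Gad1, which makes the transmitter GABA, at 11.1, 27.1 and 3.52 CPM in controls and 0.734, 0.936, 59.2 and 209 CPM in WDR11OE tumors. That rank rests on WDR11OE 4, and in controls the most abundant was Camk2a, a neuronal kinase, at 172, 22.3 and 20.3 CPM, against 1.52, 4.44, 17.6 and 66.8 CPM in WDR11OE tumors. No marker of the list was at 0 in all tumors.

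Of the 70 histone genes, 67 had enough counts to be tested. The other 3 were Hist1h1t, a linker histone of the testis, with 3 to 15 counts a tumor, Hist1h2aa with 0 to 2, and Hist2h2aa1 with 0 in all. Hist2h2aa1 is identical to Hist2h2aa2 and overlaps the exon of Hist2h3c1 on the same strand, so its 0 gives no level. Tests used edgeR's quasi-likelihood model over all 17389 genes with Benjamini-Hochberg adjustment, and a gene passed at an adjusted p under 0.05. Of the 67, 5 passed lower and 4 higher in WDR11OE tumors, while 15.8% of all genes passed lower and 18.1% higher. At a change of at least 2-fold, 2 were lower (all genes: 3.95%) and 1 higher (all genes: 3.53%). The groups did not overlap for 4 lower (all genes: 19.1%) and 5 higher (all genes: 23.5%) histone genes. These shares lay below or near those of all genes. The median log2 fold change was 0.19, against 0.08 over all genes, with 45 above and 22 below 0, but it was -0.03 without control 1. Scaling to the histone sum (described below) sets it near 0 by construction, at -0.03. Over the alternatives run, the lower count went from 1 to 8 and the higher count from 1 to 13. Without control 3 it was 1 lower and 13 higher, and without control 2, or without WDR11OE 1, it was 1 and 1.

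By class, where 15.8% lower and 18.1% higher of all genes is the background, none of the 5 tested linker H1 genes passed edgeR's test in either direction (unadjusted p under 0.05: 0 lower, 1 higher; DESeq2 and limma voom: 0). Their median log2 fold change was 0.19. Of 18 H2A genes 2 passed lower and 2 higher by edgeR (median 0.26; DESeq2 2 and 2, limma voom 1 and 2; with the GC trend removed 0 and 3). Of 19 H2B genes 0 passed lower and 2 higher by edgeR (median 0.06; unadjusted p under 0.05: 1 lower, 3 higher; DESeq2 1 lower and 2 higher, limma voom 0 lower and 3 higher). Of 12 H3 genes 2 passed lower and 0 higher by edgeR (median 0.31; unadjusted p under 0.05: 3 lower, 2 higher; DESeq2 3 lower and 2 higher, limma voom 1 lower and 0 higher). Of 13 H4 genes 1 passed lower and 0 higher (median 0.19; unadjusted p under 0.05: 1 lower, 0 higher; DESeq2 and limma voom 1 lower and 0 higher). These edgeR counts moved when a tumor was left out. Without control 3, H2A gave 0 lower and 6 higher, H3 1 and 2, and H2B 0 and 3. H1 and H4 then each gave 0 lower and 1 higher. Without control 2 or WDR11OE 1, H2A and H3 each gave 0 and 0, as did H4 without control 2. H2B gave 1 lower and 2 higher without control 1, and 1 lower and 1 higher without control 2. It gave 0 lower and 1 higher without WDR11OE 1 or WDR11OE 2. With the GC trend removed, H3 gave 0 and 0. Without control 1 the medians were 0.02 for H1, -0.0030 for H2A, -0.17 for H2B, 0.06 for H3 and -0.02 for H4. The direction of H2A, H2B and H4 thus turned with that tumor left out, and every class median moved toward or past 0. The H2B median also lay below 0 without WDR11OE 1 (-0.0027) or WDR11OE 2 (-0.08). It was below 0 as well without the 2 tumors highest in neuron markers (-0.08) and with neuron markers as a covariate (-0.04). With counts scaled to the histone sum the class medians were -0.06 for H1, 0.06 for H2A, -0.16 for H2B, 0.10 for H3 and -0.04 for H4. That scaling centres the histone genes near 0 by construction, so the signs of these medians give no direction.

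The counts were also read by location, where 15.8% lower and 18.1% higher of all genes is again the background. Of 9 tested Hist2 genes on chromosome 3, 4 passed lower and 0 higher by edgeR (unadjusted p under 0.05: 5 lower, 1 higher; DESeq2 5 and 0, limma voom 2 and 1; with the GC trend removed 1 and 0), with a median log2 fold change of -0.66. Without control 2, 0 of the 9 passed lower by edgeR, and 1 did without control 3 or without WDR11OE 1. Of 29 genes between 23.6 and 24 Mb on chromosome 13, 0 passed lower and 3 higher by edgeR (unadjusted p under 0.05: 1 and 8; DESeq2 1 and 5, limma voom 0 and 3; with the GC trend removed 0 and 4), with a median of 0.34. Without control 3 the higher count was 9, and without control 2, WDR11OE 1 or WDR11OE 2 it was 1. The counts were 1 lower and 2 higher without control 1. Of 24 genes between 21.8 and 22.1 Mb none passed by edgeR (unadjusted p under 0.05: 0; DESeq2 and limma voom 0; with the GC trend removed 0 lower and 1 higher), with a median of 0.13. Of these 24, 2 passed higher without control 3, and 1 passed lower with neuron markers as a covariate. Over all alternatives the Hist2 median stayed below 0, from -0.89 to -0.38, and that of the 23.6 to 24 Mb genes above 0, from 0.11 to 0.67. The 21.8 to 22.1 Mb median ran from -0.13 to 0.41. These locations were compared after the values were seen, so no test is attached to the difference between them.

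**Figure D2:**
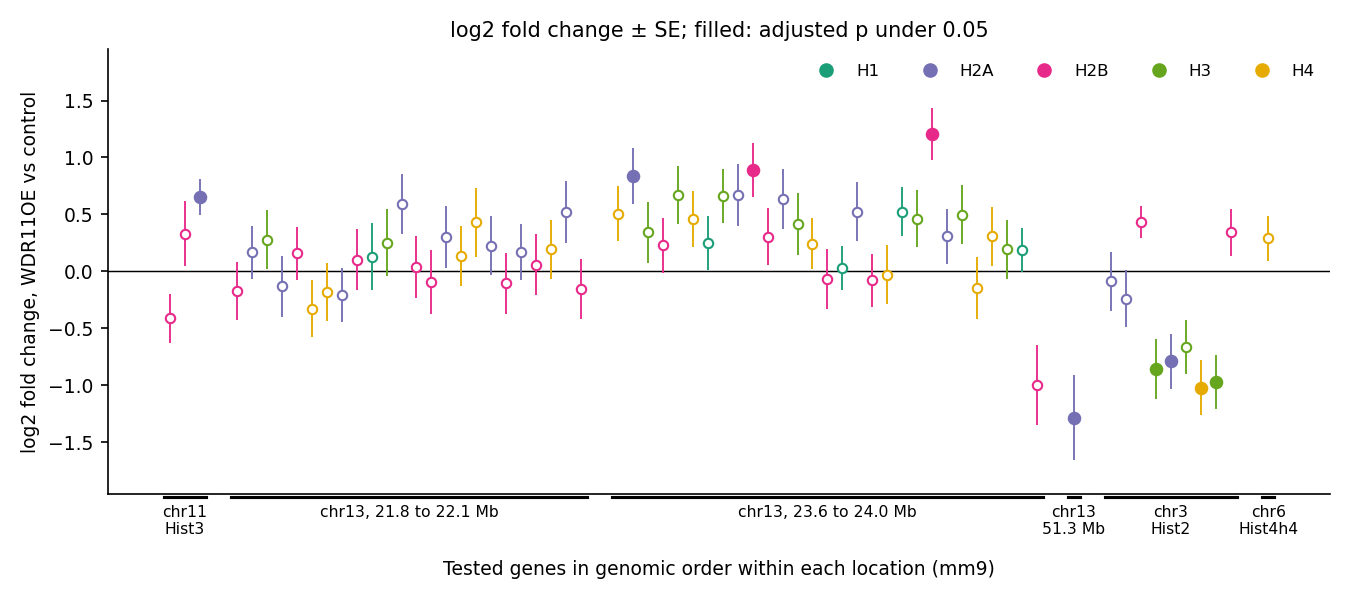
Log2 fold change ± SE of the 67 tested histone genes in genomic order, colored by class; filled points have an adjusted p under 0.05. The Hist2 genes of chromosome 3 hold 4 of the 5 genes that passed lower.

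The Hist2 genes that passed included all core classes but H2B. Hist2h4, an H4 gene, stood at 73.0, 107 and 141 CPM in the controls and 57.9, 64.2, 50.1 and 39.1 CPM in the WDR11OE tumors. Every WDR11OE tumor lay below every control, and only 1.03% of its 50-base stretches recur in other histone genes. Its log2 fold change was -1.02 ± 0.24 (SE) with an adjusted p = 0.0167 (edgeR, Benjamini-Hochberg) and an exact permutation p = 0.0286, the smallest that 35 splits of 7 tumors allow. The call ended without control 2 or control 3.

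Hist2h3b, an H3 gene, stood at 113, 163 and 227 CPM in controls and 81.8, 103, 87.0 and 69.5 CPM in WDR11OE tumors. The groups did not overlap, although 79.7% of its stretches recur elsewhere, so its level is uncertain. Its log2 fold change was -0.97 ± 0.23 (SE; edgeR with Benjamini-Hochberg adjustment, adjusted p = 0.0173), and the call ended without control 2 or WDR11OE 1 and with the GC trend removed. Hist2h2aa2, an H2A gene and an exact copy of Hist2h2aa1, stood at 152, 214 and 306 CPM in controls and 130, 158, 130 and 102 CPM in WDR11OE tumors. WDR11OE 2 lay above control 1. The log2 fold change was -0.79 ± 0.24 (SE; edgeR with Benjamini-Hochberg adjustment, adjusted p = 0.0414). Hist2h3c2, an H3 row annotated as a pseudogene without a coding sequence, stood at 88.6, 117 and 193 CPM in controls and 74.7, 89.1, 70.7 and 58.5 CPM in WDR11OE tumors. Of its stretches 64.1% recur in other histone genes, so its level is uncertain too. Again WDR11OE 2 lay above control 1. For Hist2h3c2 the log2 fold change was -0.86 ± 0.26 (SE; edgeR with Benjamini-Hochberg adjustment, adjusted p = 0.0406). The calls of Hist2h2aa2 and Hist2h3c2 each ended without control 2, control 3, WDR11OE 1, WDR11OE 3 or WDR11OE 4, with limma voom, and with the GC trend removed.

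Not every Hist2 gene was lower. Hist2h2bb, an H2B gene with no stem-loop match and the most abundant of its class in CPM, stood at 317, 341 and 528 CPM in controls and 460, 591, 538 and 420 CPM in WDR11OE tumors. The groups overlapped, and its log2 fold change was 0.35 ± 0.21 (SE; edgeR with Benjamini-Hochberg adjustment, adjusted p = 0.248). Hist2h2be, an H2B gene with a poly(A) signal near its annotated end, stood at 9.31, 8.85 and 10.3 CPM in controls and 13.6, 14.8, 11.1 and 11.9 CPM in WDR11OE tumors. All WDR11OE tumors lay above all controls, but it did not pass (log2 fold change 0.43 ± 0.14 SE; edgeR with Benjamini-Hochberg adjustment, adjusted p = 0.0526). It passed in 4 of 19 alternatives: limma voom, library size scaling, upper quartile scaling and the neuron marker covariate.

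Between 23.6 and 24 Mb on chromosome 13, 2 H2B genes and 1 H2A gene passed higher. Hist1h2bb stood at 167, 219 and 313 CPM in controls and 548, 638, 525 and 443 CPM in WDR11OE tumors. The lowest WDR11OE tumor lay well above the highest control. Its log2 fold change of 1.21 ± 0.23 (SE) was the largest rise of the 67 (edgeR with Benjamini-Hochberg adjustment, adjusted p = 0.00644; exact permutation p = 0.0286). It alone passed under all 19 alternatives run on the whole table, with adjusted p-values from 5.1e-06 to 0.0321.

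Hist1h2bg, also an H2B gene, stood at 144, 220 and 292 CPM in controls and 449, 462, 371 and 342 CPM in WDR11OE tumors. The groups did not overlap. Its fold change on the log2 scale was 0.89 ± 0.24 (SE; edgeR with Benjamini-Hochberg adjustment, adjusted p = 0.0257), and the call ended without control 2, WDR11OE 1 or WDR11OE 2 and with histone scaling. Hist1h2af, an H2A gene with 79.7% of its stretches shared, stood at 71.6, 105 and 146 CPM in controls and 194, 225, 202 and 147 CPM in WDR11OE tumors. WDR11OE 4 lay only just above control 3. The fold change on the log2 scale was 0.84 ± 0.25 (SE; edgeR with Benjamini-Hochberg adjustment, adjusted p = 0.0371). That call ended without control 1, control 2, WDR11OE 1, WDR11OE 2 or WDR11OE 3, with no filter on low counts, and with histone scaling.

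The other 2 genes that passed lie outside these locations. Hist1h2al, an H2A gene with no stem-loop match and 71.4% of its stretches shared, stood at 38.9, 49.0 and 91.2 CPM in controls and 30.5, 33.6, 18.8 and 15.2 CPM in WDR11OE tumors. The groups did not overlap, and control 3 was the highest. Its log2 fold change of -1.28 ± 0.37 (SE) was the lowest of the 67 (edgeR with Benjamini-Hochberg adjustment, adjusted p = 0.0340). The call ended without control 2, control 3, WDR11OE 1 or WDR11OE 3 and with the GC trend removed. Hist3h2a, an H2A gene of low level, stood at 5.81, 4.67 and 4.69 CPM in controls and 7.96, 7.87, 6.96 and 9.01 CPM in WDR11OE tumors. All WDR11OE tumors were higher, and reads of Trim17 cannot be told apart where the exons overlap. On the log2 scale its fold change was 0.65 ± 0.16 (SE; edgeR with Benjamini-Hochberg adjustment, adjusted p = 0.0192). The call ended without control 2, control 3, WDR11OE 1 or WDR11OE 2, with the GC trend removed, and with histone scaling.

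The most abundant gene of each class in CPM did not pass in the main edgeR model. Of these, the H3 gene Hist1h3f passed in 3 of 19 alternatives: DESeq2, the fit without control 3 and the neuron marker covariate. Hist2h2bb passed in 1, the fit without control 3. Among linker genes, Hist1h1d stood at 340, 515 and 627 CPM in controls and 689, 686, 522 and 456 CPM in WDR11OE tumors. Hist1h1e stood at 417, 482 and 691 CPM against 572, 620, 517 and 457 CPM. The groups overlapped for both, and their log2 fold changes were 0.25 ± 0.24 and 0.03 ± 0.19 (SE). Hist1h1c stood at 280, 391 and 523 CPM against 593, 660, 559 and 478 CPM, with only WDR11OE 4 below the highest control. The log2 fold change of Hist1h1c was 0.53 ± 0.21 (SE; edgeR with Benjamini-Hochberg adjustment, adjusted p = 0.101).

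Among core genes, Hist1h4d stood at 332, 407 and 577 CPM in controls and 571, 629, 466 and 410 CPM in WDR11OE tumors, and the groups overlapped (log2 fold change 0.24 ± 0.22 SE). Hist1h3f, the most abundant H3 gene in CPM, stood at 181, 249 and 388 CPM against 447, 512, 417 and 362 CPM. Only WDR11OE 4 lay below control 3, and its log2 fold change was 0.67 ± 0.25 (SE; edgeR with Benjamini-Hochberg adjustment, adjusted p = 0.0806). The H2A gene Hist1h2ab stood at 152, 240 and 318 CPM against 307, 344, 279 and 241 CPM, also with overlap (log2 fold change 0.31 ± 0.24 SE). Hist1h2ap, an H2A gene identical to Hist1h2ao and so uncertain, had a log2 fold change of 0.22 ± 0.26 (SE), with 103, 161 and 233 CPM against 189, 225, 199 and 161 CPM. The groups of both H2A genes overlapped.

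Other abundant H3 and H4 genes had the same order of tumors within each group. Hist1h3b stood at 159, 262 and 335 CPM in controls and 363, 432, 350.0 and 278 CPM in WDR11OE tumors. Hist1h3e stood at 124, 186 and 254 CPM against 321, 345, 278 and 249 CPM. For both H3 genes WDR11OE 4 alone lay below control 3, and neither passed in the main edgeR model (log2 fold changes 0.50 ± 0.26 and 0.66 ± 0.24 SE). Hist1h3e passed in 4 of 19 alternatives: DESeq2, upper quartile scaling, the fit without control 3 and the neuron marker covariate. Hist1h4h stood at 234, 308 and 415 CPM against 535, 547, 397 and 336 CPM. Hist1h4f stood at 172, 230.2 and 325 CPM against 387, 400, 287 and 261 CPM. In both H4 genes WDR11OE 3 and WDR11OE 4 lay below control 3, and neither passed in the main edgeR model (log2 fold changes 0.51 ± 0.24 and 0.46 ± 0.25 SE). Hist1h4h passed in 1 of 19 alternatives, the neuron marker covariate. Hist1h2ba, the testis H2B, stood at 2.83, 3.31 and 6.99 CPM against 2.58, 2.45, 2.10 and 1.63 CPM. All its WDR11OE tumors lay below all controls, and it did not pass (log2 fold change -1.0 ± 0.35 SE, edgeR with Benjamini-Hochberg adjustment, adjusted p = 0.0640). Hist1h2ba passed in 4 of 19 alternatives: DESeq2, the fits without control 1 and without the 2 tumors highest in neuron markers, and the neuron marker covariate.

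Since the histone sum varied from tumor to tumor, the share of each gene in the histone sum was also read. Shares add up to 100%, so they are not independent of each other. Of the 67 tested genes, the share was lower in every WDR11OE tumor than in every control for 24 and higher for 18. The ratio of a gene to the histone sum did not overlap, lower, for 15.3% of all genes and, higher, for 3.50%. Histone genes make up this sum, and dividing by it narrowed their spread. Their median coefficient of variation was 34.7% in controls and 17.1% in WDR11OE tumors for CPM, and 6.82% and 5.22% for the share. Other genes need not follow the sum, so the percentages over all genes are not a like background for these counts. Hist2h4 made up 0.909%, 0.934% and 0.886% of the sum in controls and 0.390%, 0.390%, 0.383% and 0.355% in WDR11OE tumors. Hist2h3b made up 1.40%, 1.42% and 1.42% against 0.551%, 0.628%, 0.664% and 0.631%. Each group was tight, and the gap between the groups was many times the spread within them.

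For the H2B genes that passed higher, the share was larger in every WDR11OE tumor. Hist1h2bb made up 2.08%, 1.91% and 1.97% of the sum in controls and 3.69%, 3.88%, 4.0% and 4.03% in WDR11OE tumors. Hist1h2bg made up 1.80%, 1.92% and 1.84% against 3.03%, 2.81%, 2.83% and 3.11%. For the linker gene Hist1h1e the share was lower, at 5.20%, 4.20% and 4.34% against 3.86%, 3.76%, 3.95% and 4.15%. Its controls were spread more widely, control 1 stood apart from the other controls, and the groups lay close together, unlike those of the H2B genes.

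By location, the 10 Hist2 genes made up 11.1%, 10.1% and 10.6% of the sum in controls and 6.60%, 7.33%, 7.93% and 7.48% in WDR11OE tumors. The 31 genes between 23.6 and 24 Mb made up 58.4%, 57.0% and 56.5% against 64.1%, 63.6%, 62.8% and 64.0%. The 24 genes between 21.8 and 22.1 Mb made up 28.5%, 31.5% and 31.1% against 28.0%, 27.9%, 28.0% and 27.1%. None of these 3 shares overlapped, although the last nearly did. In CPM, by contrast, the Hist2 sum overlapped, at 893, 1156 and 1695 against 979, 1208, 1039 and 824. The share was lower without overlap for 7 of 9 tested Hist2 genes, while between 23.6 and 24 Mb it was higher for 15 and lower for 6 of 29. Between 21.8 and 22.1 Mb it was higher for 3 and lower for 10 of 24. Over all genes 15.3% were lower and 3.50% higher on this measure, which is not a like background for genes that make up the sum.

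**Figure D3:**
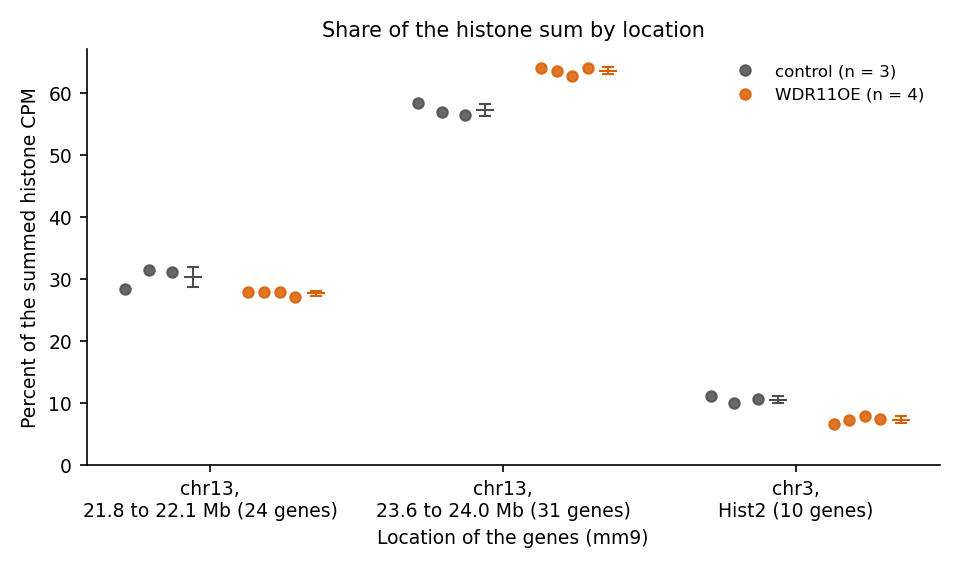
Percent of the histone sum held by the genes of 3 locations in 3 control and 4 WDR11OE tumors; bars give mean ± SD. The Hist2 share is lower, and the share of the genes between 23.6 and 24 Mb higher, in every WDR11OE tumor.

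When the whole table was scaled to the summed histone counts in place of TMM, 6 of the 67 genes passed lower (all genes: 4.65%) and 1 higher (all genes: 0.581%). This scaling moved the median over all genes by -0.30. It also cut the calls over all genes from 2744 to 808 lower and from 3150 to 101 higher. The histone calls went from 5 lower and 4 higher to 6 and 1. The percentages over all genes are thus not a like background for the genes that set the scale. The lower genes were Hist1h2al and the Hist2 genes Hist2h2aa2, Hist2h3b, Hist2h3c1, Hist2h3c2 and Hist2h4, and the higher gene was Hist1h2bb. Hist2h3c1, an H3 gene whose long exon overlaps Hist2h2aa1, stood at 73.7, 109 and 151 CPM in controls and 71.4, 84.2, 68.7 and 56.4 CPM in WDR11OE tumors. Its groups overlapped, and in the main model it did not pass (log2 fold change -0.66 ± 0.24 SE; edgeR with Benjamini-Hochberg adjustment, adjusted p = 0.0695). It passed in 6 of 19 alternatives: histone scaling, DESeq2, library size scaling, the fits without control 1 and without the 2 tumors highest in neuron markers, and the neuron marker covariate.

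Base composition moved with the fold changes of the whole table, and histone genes are rich in G and C, with a median exon GC of 59.5% against 49.8% for all tested genes. Log2 fold change and exon GC had a Spearman correlation of -0.34 over all tested genes with a known GC (n = 17125). Over the 67 histone genes it was -0.20 (n = 67 genes of the same libraries). With the GC trend removed from each tumor, 1 of the 67 histone genes passed lower (all genes: 13.2%) and 5 higher (all genes: 9.05%), over 17125 genes with a known GC. Hist2h4 was the lower gene, and Hist1h2bb, Hist1h2bg and Hist1h2af were among the higher. The median log2 fold change of the 67 was then 0.44, against 0.04 over all genes. Higher genes made up 44.4% of the 9 histone calls under the main model and 83.3% with the GC trend removed, as lower calls fell from 5 to 1, while over all genes they made up 53.4% and 40.6%. That share of so few calls was 62.5% with limma voom and 14.3% with histone scaling. With a tumor left out it ran from 16.7% (without WDR11OE 2) to 92.9% (without control 3). The correlation of log2 fold change with the share of recurring 50-base stretches was -0.11 (n = 67), and with average log2 CPM it was 0.33 (n = 67).

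Histone genes outside the clusters, which are mostly made through the cell cycle and carry poly(A) tails, went in different directions. Of 11 tested, edgeR passed 3 lower and 2 higher (all genes: 15.8% and 18.1%), with a median log2 fold change of -0.15 (with the GC trend removed: 1 and 1, against 13.2% and 9.05% of all genes). The linker gene H1fx stood at 19.5, 24.3 and 32.7 CPM in controls and 14.2, 14.7, 14.5 and 9.41 CPM in WDR11OE tumors. All WDR11OE tumors were lower (log2 fold change -0.95 ± 0.22 SE; edgeR with Benjamini-Hochberg adjustment, adjusted p = 0.0153). H2afz, which encodes the variant H2A.Z found at promoters, stood at 223, 222 and 330 CPM against 376, 440, 420 and 355 CPM. All WDR11OE tumors were higher (log2 fold change 0.62 ± 0.16 SE; edgeR with Benjamini-Hochberg adjustment, adjusted p = 0.0238). H3f3b, one of the genes for the variant H3.3 and the most abundant of the list, stood at 481, 383 and 520 CPM against 717, 685, 578 and 607 CPM. It too was higher in every WDR11OE tumor (log2 fold change 0.49 ± 0.14 SE; edgeR with Benjamini-Hochberg adjustment, adjusted p = 0.0292). Without control 1, control 2, WDR11OE 1 or WDR11OE 2, neither H2afz nor H3f3b passed. The same held with no filter on low counts, without the 2 tumors highest in neuron markers, and with histone scaling. Without WDR11OE 3, 1 gene of the list passed higher.

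Genes for transcription and 3′-end processing of histone mRNA gave 2 lower and 5 higher of 18 tested by edgeR (all genes: 15.8% and 18.1%), with a median log2 fold change of 0.19 (with the GC trend removed: 1 and 1; leaving out each tumor in turn: 2 to 4 lower, 1 to 5 higher). Slbp, the stem-loop binding protein, stood at 52.2, 46.0 and 61.8 CPM in controls and 79.4, 80.0, 70.9 and 72.7 CPM in WDR11OE tumors. All WDR11OE tumors were higher (log2 fold change 0.51 ± 0.11 SE; edgeR with Benjamini-Hochberg adjustment, adjusted p = 0.0108). Npat, the coactivator of histone gene transcription, stood at 78.7, 68.2 and 74.1 CPM against 80.0, 80.2, 88.6 and 84.6 CPM. Its groups did not overlap, and it did not pass (log2 fold change 0.18 ± 0.07 SE; edgeR with Benjamini-Hochberg adjustment, adjusted p = 0.101). Casp8ap2, a partner of Npat in histone locus bodies, stood at 82.3, 78.6 and 90.4 CPM against 140, 134, 131 and 126 CPM. It was the highest of the list in fold (log2 fold change 0.67 ± 0.07 SE; edgeR with Benjamini-Hochberg adjustment, adjusted p = 0.00117). Sympk, a scaffold of the cleavage complex, stood at 163, 202 and 198 CPM against 116, 123, 124 and 108 CPM. It was lower in every WDR11OE tumor (log2 fold change -0.67 ± 0.09 SE; edgeR with Benjamini-Hochberg adjustment, adjusted p = 0.00227).

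Of 17 histone chaperone and transport genes tested, edgeR passed 4 lower and 3 higher (all genes: 15.8% and 18.1%), with a median log2 fold change of -0.03 (with the GC trend removed: 4 and 1). Nasp, a chaperone of H3 and H4 that also binds H1, stood at 138, 165 and 186 CPM in controls and 315, 300, 308 and 279 CPM in WDR11OE tumors. Every WDR11OE tumor was well above every control (log2 fold change 0.88 ± 0.11 SE; edgeR with Benjamini-Hochberg adjustment, adjusted p = 0.00161). Ipo4, an importin that carries H3 and H4 into the nucleus, stood at 153, 159 and 173 CPM against 74.3, 79.9, 81.5 and 73.4 CPM. Every WDR11OE tumor was well below every control (log2 fold change -1.07 ± 0.07 SE; edgeR with Benjamini-Hochberg adjustment, adjusted p = 0.000858). Nap1l1, a chaperone of H2A and H2B and the most abundant of the list, stood at 499.7, 492 and 597 CPM against 551, 514, 546 and 464 CPM. Its groups overlapped, and it did not pass (log2 fold change -0.03 ± 0.11 SE).

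Among S-phase and proliferation genes, whose mRNAs carry poly(A) tails, more passed higher than lower. Of 28 tested, edgeR passed 2 lower and 12 higher (all genes: 15.8% and 18.1%), with a median log2 fold change of 0.24 (with the GC trend removed: 1 and 2, against 13.2% and 9.05% of all genes; without WDR11OE 1 or WDR11OE 2: 1 and 6). Pcna, the sliding clamp of DNA polymerase, stood at 123, 136 and 177 CPM in controls and 271, 265, 226 and 246 CPM in WDR11OE tumors. Every WDR11OE tumor was higher (log2 fold change 0.79 ± 0.14 SE; edgeR with Benjamini-Hochberg adjustment, adjusted p = 0.00474). Cdt1, which loads the replicative helicase, stood at 70.3, 72.1 and 79.6 CPM against 42.7, 48.4, 40.5 and 30.3 CPM. All WDR11OE tumors were lower (log2 fold change -0.87 ± 0.15 SE; edgeR with Benjamini-Hochberg adjustment, adjusted p = 0.00467). Ccne2, cyclin E2, stood at 34.9, 34.3 and 35.1 CPM against 63.2, 70.5, 60.5 and 54.6 CPM. It was the highest of the list in fold (log2 fold change 0.84 ± 0.09 SE; edgeR with Benjamini-Hochberg adjustment, adjusted p = 0.00119). Top2a, a DNA topoisomerase and the most abundant of the list over all tumors, stood at 563, 571 and 706 CPM against 1059.6, 1079, 980.2 and 871 CPM. Again the groups did not overlap (log2 fold change 0.70 ± 0.13 SE; edgeR with Benjamini-Hochberg adjustment, adjusted p = 0.00593).

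Mki67, a marker of cycling cells, stood at 838, 693 and 923 CPM in controls against 655, 695, 700 and 613 CPM. Its groups overlapped, and it did not pass (log2 fold change -0.30 ± 0.12 SE; edgeR with Benjamini-Hochberg adjustment, adjusted p = 0.0949). The summed list stood at 3608, 3509 and 4432 CPM in controls and 4764, 4775, 4438 and 3940 CPM in WDR11OE tumors. WDR11OE 4, lowest of its group in histone mRNA, was also lowest in this sum, and control 3 was the highest control in both. The lowest control differed, as control 1 in histone mRNA and control 2 in this sum. The part of the S-phase fraction in the histone values was not tested.

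With the table scaled to the histone sum, under which 4.65% of all genes passed lower and 0.581% higher, these 4 lists changed too. By edgeR it was then 3 lower and 0 higher for histone genes outside the clusters, and 1 lower and 0 higher for each of the processing, chaperone and S-phase lists. Their medians were -0.42, -0.11, -0.32 and -0.06. The direction of the processing and S-phase medians turned with this scaling, which moved the median over all genes by -0.30.

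Among markers of host tissues, the summed level of muscle and that of endothelial markers did not overlap between the groups (all genes passing: 15.8% lower, 18.1% higher). The 6 muscle markers summed to 2.11, 1.5 and 1.26 CPM in controls and 76.4, 40.3, 106 and 34.7 CPM in WDR11OE tumors, and all 6 passed higher by edgeR. Their most abundant gene in WDR11OE tumors was Myh4, a muscle myosin, and in controls Tnnt3, a troponin, and Mb (myoglobin) was at 0 in all controls. The 6 endothelial markers summed to 112, 142 and 129 CPM against 95.8, 88.8, 86.4 and 86.8 CPM, with 2 lower, Cdh5 and Flt1, and none higher by edgeR, and the other 4 overlapped. The most abundant was Cdh5 in controls (mean 35.7 CPM) and Kdr in WDR11OE tumors (mean 22.4 CPM), and none was at 0. Their part in the histone values was not tested.

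For astrocytes 1 of 6 markers, S100b, passed higher by edgeR and none lower, and for oligodendrocytes and microglia none of 6 and none of 6 passed in either direction (unadjusted p under 0.05: 0 by edgeR, DESeq2 and limma voom). The astrocyte markers summed to 623, 580.4 and 360 CPM in controls and 233, 237, 474 and 859 CPM in WDR11OE tumors, with Slc1a2 the most abundant in controls and Slc1a3 in WDR11OE tumors. Oligodendrocyte markers summed to 296, 340.2 and 121 CPM against 170.0, 111, 130.2 and 320 CPM, led by Mbp. Microglial markers summed to 115, 128 and 83.1 CPM against 64.2, 83.5, 105 and 151 CPM, led by Tmem119. All 3 sums overlapped between the groups, and WDR11OE 4 was the highest of its group in each. Of 7 granule lineage markers, the cell type from which the line was made, 5 were tested and none passed by edgeR (unadjusted p under 0.05: 0 lower, 2 higher; DESeq2 2 higher, limma voom 0). Atoh1, the defining factor of granule neuron progenitors, was at 0 in all 7 tumors, Barhl1 was too low to test, and the most abundant was Pax6 in controls and Meis1 in WDR11OE tumors. Their sum was 50.2, 53.7 and 46.2 CPM in controls and 46.1, 42.6, 53.7 and 94.4 CPM in WDR11OE tumors, with overlap.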

How the data were processed

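The authors mapped reads to mm9 and counted them per gene with HTSeq, and the deposited values are raw counts without normalization. Members were the table rows named Hist1h to Hist4h. Members and lists were chosen with earlier results of these data known. In R 4.3.3, genes passing filterByExpr of edgeR 4.0.16 were given TMM factors and fitted by quasi-likelihood on condition alone, with two-sided p-values and Benjamini-Hochberg adjustment over 17389 genes. The model was tested on simulated data. Alternatives were DESeq2 1.42.0, limma 3.58.1 with voom, other filters and scalings, removal of a loess trend on exon GC, and leaving out each tumor. Chosen after seeing the data were a fit without the 2 tumors highest in neuron markers, neuron markers as a covariate, scaling to histone counts, the tailless RNA list and the locations. Permutation used log2 of CPM plus 0.1. Named histone genes were the 3 highest in mean CPM of each class, those at the ends of its fold changes, and those passing against most of the class; in each list of histone-related genes, the ends and the most abundant gene. Hist3h2a, which passed, and Hist2h2be and Hist2h3c1 were added after their values were seen. Slbp and Npat of the processing list, and Pcna and Mki67 of the S-phase list, are also given outside these rules. Sequences, GC and lengths came from the NCBIM37 genome and its GENCODE annotation (97.1% of genes matched).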

Additional observations from a re-analysis of the deposited data

How the results depend on the processing

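Against 5 lower histone genes, limma voom gave 3, GC removal 1 and the neuron covariate 8, and leaving out a tumor gave 1 to 7. Against 2 lower by at least 2-fold, DESeq2 and the neuron covariate gave 4, limma voom and upper quartile scaling 1, GC removal 0, and histone scaling and the fit without the 2 tumors highest in neuron markers 5, while leaving out a tumor gave 0 to 6. Against 4 higher, the neuron covariate gave 8 and histone scaling 1, and leaving out a tumor gave 1 to 13. Against 1 higher by at least 2-fold, GC removal gave 2 and histone scaling 0, and leaving out a tumor gave 1 to 4. Higher genes were 44.4% of the histone calls, 54.5% with upper quartile scaling, 83.3% with GC removal, 14.3% with histone scaling and 16.7% to 92.9% when a tumor was left out. The median log2 fold change of the 67 ran from -0.03 to 0.48, and the fit without the 2 tumors moved the median over all genes by -0.11. The 9 genes that passed kept their call in 130 of 171 results and lost it in 41. Another 13 histone genes, named by the rule, gained a call in 14 of 247, and 0 reversed. Hist2h2be and Hist2h3c1, outside the rule, passed in 4 and 6 of 19 alternatives. Class medians moved by less than the spread between tumors, though those of H2A, H2B and H4 turned sign without control 1, and summed means moved by less than that spread. The H2B median was also below 0 without WDR11OE 1 or WDR11OE 2, in the fit without the 2 tumors and with the neuron covariate.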
